A study of Mus musculus with 6 samples.

Results

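The transcripts described here encode 8 surface receptors of lymphocytes that are mostly known as brakes on activation: Lag3, Havcr2 (TIM-3), Tigit, Cd160, Cd200r1, Cd96, Cd226 and Cd244. They were chosen by gene symbol, and each had a row among the 24421 rows of the deposited count table, Cd244 under that older symbol. The table covers group 2 innate lymphoid cells (ILC2), lymphocytes of tissues that lack antigen receptors and make type 2 cytokines. Cells were sorted from brains of C57BL/6 mice by surface markers and cultured for 2 weeks with IL-7, IL-2, IL-33, SCF (stem cell factor) and 20% fetal calf serum, in both groups alike. Young mice were 2 to 3 months old, and the aged group, labelled old, was 20 to 22 months old; each group has 3 libraries. Whether the 3 libraries stem from separate animals, pools or cultures is not in the labels, and p-values therefore reflect only the spread among these libraries, which may be technical.

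Inhibitory receptors dampen signals from activating receptors, mostly through phosphatases or adaptor proteins that bind motifs in their tails. Several act in families with shared ligands. Tigit, Cd96 and the activating receptor Cd226 compete for Pvr (CD155) and nectins, so Cd226 is the counterpart of the other two rather than an inhibitor itself. Cd200r1 binds Cd200, Havcr2 binds galectin 9 and other ligands, Lag3 binds MHC class II, Cd160 binds Tnfrsf14 (HVEM) and Cd244 binds Cd48.

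Library totals ran from 16477157 to 20804291 counts, and levels are given in CPM (counts-per-million) after TMM scaling, which corrects for composition. All 12 ILC2 markers had counts, and their summed level was 9432 to 10840 CPM in the young and 6334 to 8416 CPM in the aged libraries (p = 0.1 by a two-sided exact permutation test, the lowest value that 3 against 3 can give). The largest part was the cytokine gene Il5, at a mean of 5331 CPM in the young and 3227 CPM in the aged libraries. The markers went both ways: Thy1, Areg, Il7r and Ptpn22 had higher means in the aged libraries, and the others lower ones. The T cell genes Cd3e, Cd4 and Cd8a and the NK cell and ILC1 genes Ncr1, Eomes, Tbx21 and Klrb1c had 0 counts in each library. The other 4 of the 7 T cell genes with a row had counts, led by Cd3g with 120, 319 and 181 counts in the young and 44, 147 and 199 in the aged libraries. Cd6 had 126, 13 and 59 counts in the young and 0 in the aged libraries. The T cell list summed to 13.4 to 14.6 CPM in the young and 6.76 to 14.7 CPM in the aged libraries (two-sided exact permutation p = 0.4). Scaling by library totals alone moved the median log2 change over all tested genes from -0.101 to -0.517, so directions are relative to TMM. Markers of some other cells were higher in the aged libraries: dendritic cell markers, mostly Batf3, at 64.8 to 87.8 against 309.8 to 353.8 CPM, microglia and macrophage markers, mostly Tmem119, at 7.01 to 19.2 against 57.9 to 97.6 CPM, and the B cell gene Cd79b at 13.7 to 22.9 against 33.2 to 58.3 CPM. The part of such cells in the values below was not tested. The libraries are bulk RNA, in which fewer cells carrying a transcript and less of it per cell cannot be told apart.

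In aged cultures Cd160 was about 5-fold higher, and Cd226 and Cd96 were each about 3-fold lower, than in young cultures. Tigit, Lag3, Cd200r1 and Havcr2 did not pass the test, and Cd244 fell below the filter on low counts. Each of the 8 genes had counts in at least 3 libraries. Of the 7 tested, 1 rose and 2 fell by edgeR's quasi-likelihood test, with adjusted p-values under 0.05. Over all 11805 tested genes 19.4% were called, 11.2% as higher and 8.14% as lower in aged libraries, and 7 genes are too few to set apart from that background. The groups did not overlap in 4 of the 7, beside 38.2% of all tested genes. The summed level of the 8 was 256.1 ± 63.2 CPM in the young and 207.5 ± 29.1 CPM in the aged libraries (SD, n = 3 each), with p = 0.3 in a two-sided exact permutation test.

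**Figure D1:**
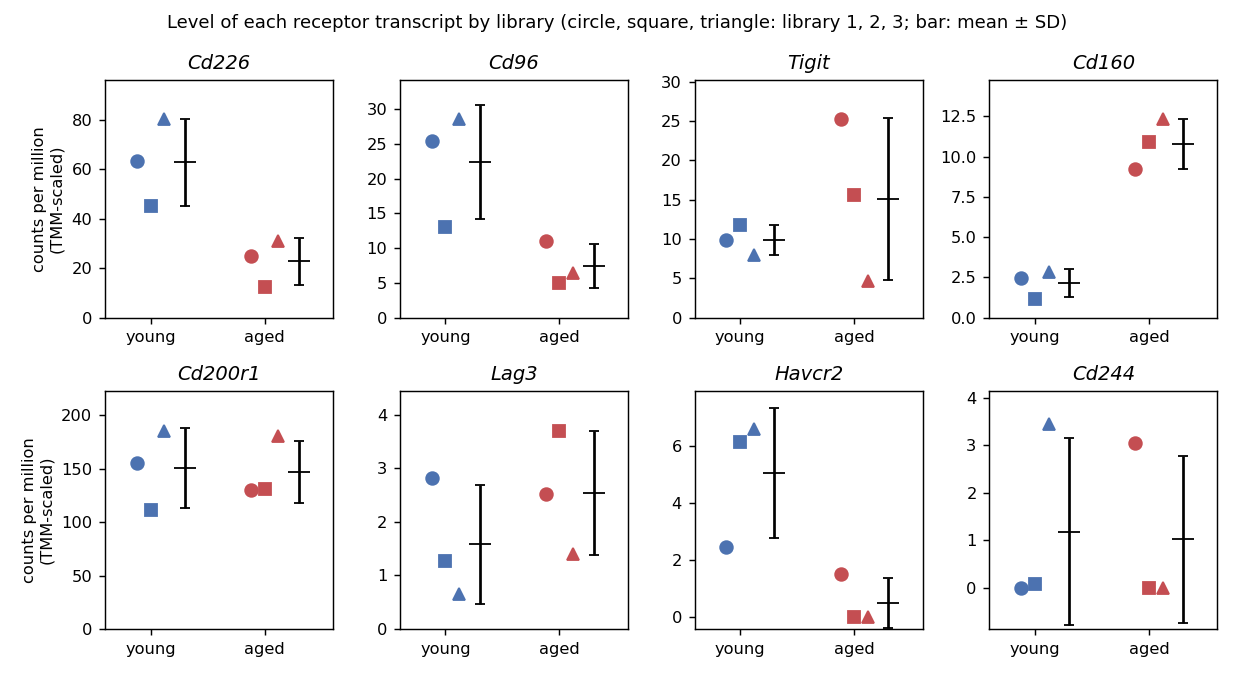
TMM-scaled CPM (y axis) of the 8 receptor transcripts in each library, by age group, with the group mean ± SD (n = 3) as black bars; each panel has its own scale. The aged points of Cd160 lie above and those of Cd226, Cd96 and Havcr2 below every young point, and the groups overlap in the other 4 panels.

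Cd226 (DNAM-1), the activating member of the Pvr receptors, lies on chromosome 18 (89176967 to 89272229, GRCm38). Its level was 63.5, 45.1 and 80.2 CPM in young libraries 1 to 3 and 24.8, 12.3 and 31.1 CPM in the aged libraries 1 to 3. Every aged library lay below every young library. Cd226 fell by 1.47 ± 0.36 in log2 units (SE; 95% interval -2.25 to -0.68; adjusted p = 0.0149, edgeR). The size of the fall was similar without any single library, at -1.87 to -1.17 over all settings tried, but leaving out young library 1 (adjusted p = 0.0564) or young library 3 (0.0658) ended the call.

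Cd96, which competes with Cd226 for Pvr, lies on chromosome 16 (46035657 to 46120251). It was at 25.5, 13.1 and 28.6 CPM in the young and 11.1, 4.98 and 6.41 CPM in the aged libraries. The lowest young library, library 2, stood just above the highest aged library. Cd96 fell by 1.58 ± 0.48 in log2 units (SE; adjusted p = 0.0404, edgeR). This call sat close to the threshold. It was lost in limma-voom (adjusted p = 0.0592) and without young library 1 (0.153), young library 3 (0.141), aged library 2 (0.112) or aged library 3 (0.0959).

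After each gene was centred on its own mean, the log2 CPM of Cd96 and Cd226 differed by a root mean square of 0.373 over the 6 libraries, the smallest of the 21 pairs among the 7 tested receptors. This measure spans both groups and so includes the similar size of the 2 falls. Both were highest in young library 3 and lowest in aged library 2. Their ratio within a library, which no scaling affects, was 2.49, 3.45 and 2.81 Cd226 counts per Cd96 count in the young and 2.25, 2.47 and 4.85 in aged libraries. That ratio overlapped between the groups (two-sided exact permutation p = 1, also 1 after Benjamini-Hochberg adjustment over the 5 ratios computed; the ratios were chosen after the values were seen).

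Tigit, an inhibitory receptor for the same ligands, lies on chromosome 16 (43648867 to 43664146). Its young libraries were close together, at 9.91, 11.8 and 7.93 CPM, whereas aged libraries 1 to 3 spread over 25.2, 15.6 and 4.64 CPM. Aged library 3 was the lowest of the 6 and aged library 1 the highest. The log2 change was 0.61 ± 0.58 (SE; 95% interval -0.66 to 1.89; adjusted p = 0.529, edgeR), and its sign turned when the fit allowed for transcript length and GC content (-0.15). Set against Cd226, there were 6.41, 3.82 and 10.1 Cd226 counts per Tigit count in the young and 0.984, 0.792 and 6.71 in aged libraries. The ratio was under 1 in aged libraries 1 and 2 and within the young range in aged library 3 (two-sided exact permutation p = 0.3; 0.375 adjusted over the 5 ratios).

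The ligand Pvr, carried by stressed and dividing cells, had 32, 81 and 57 counts in the young and 233, 380 and 65 counts in the aged libraries. It rose from 2.62 to 15.1 CPM in the mean, by 2.52 ± 0.71 in log2 units (SE; adjusted p = 0.0294, edgeR). Most of that rise came from aged libraries 1 and 2. The call was lost in limma-voom, with library totals as the sole scaling, and without any of young libraries 1, 2 or 3 or aged libraries 1 or 2 (adjusted p of 0.056 to 0.165). It was also lost when the edgeR fit allowed for replicate number alone (adjusted p = 0.0848) or with transcript length and GC content (0.0762). Nectin2, listed as Pvrl2, did not pass at 3.28 and 6.30 CPM. Nectin1 and Nectin3, listed as Pvrl1 and Pvrl3, stayed below the filter with at most 23 counts in a library.

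Cd160, a receptor anchored in the membrane by a lipid tail, lies on chromosome 3 (96798763 to 96829351). It had 47, 29 and 56 counts in young libraries 1 to 3 and 139, 162 and 194 counts in aged libraries 1 to 3, or 2.45, 1.18 and 2.85 CPM against 9.21, 10.9 and 12.3 CPM. The lowest aged library was more than 3 times the highest young library. Cd160 rose by 2.32 ± 0.65 in log2 units (SE; 95% interval 0.88 to 3.76; adjusted p = 0.0291, edgeR). The call was lost with library totals as the sole scaling (log2 change of 1.91, adjusted p = 0.0579, edgeR). It was also lost when the fit allowed for replicate number alone (0.0628) or with transcript length and GC content (0.0677). Leaving out young library 1 (0.0829), young library 2 (0.0905), aged library 2 (0.0726) or aged library 3 (0.0738) ended the call too. The log2 change stayed at 1.91 to 2.60 over all settings.

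Cd160 is known from NK cells, ILC1 and T cells. The summed NK and ILC1 markers stood at 2.24 to 6.35 CPM in the young and 9.84 to 26.2 CPM in the aged libraries, from 2 of 8 genes, Prf1 and Klre1. Prf1, the pore-forming protein of killer cells, had 43, 115 and 82 counts in the young and 354, 244 and 155 in the aged libraries. The defining markers Ncr1, Eomes, Tbx21 and Klrb1c were at 0 throughout. The Cd160 ligand Tnfrsf14 did not pass the test, at 3.91 and 3.44 CPM, and its other receptor Btla had 0, 49 and 63 counts in the young and 0 in aged libraries, and the low-count filter removed it. DESeq2 called Btla as lower (adjusted p = 0.0348), and edgeR without the filter did not (0.0638).

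The promoters of Cd160 and Cd96 are shown because these 2 receptors moved in opposite directions. RefSeq windows of 300 bases around the start, 250 before and 50 after it, were examined for 5 of the 8 genes. These were Cd160, Cd96, Cd244, Havcr2 and Tigit, and windows of the other receptors were not examined. Cd160 had 2 such windows, of which the upstream one is printed. Both lie on the minus strand of GRCm38.p6, the Cd160 window at chr3:96829302-96829601 and the Cd96 window at chr16:46120199-46120498. Capitals mark matches on either strand to the GATA words AGATAA or else AGATAG or else TGATAA or else TGATAG, the RUNX words TGTGGT or else TGCGGT, the STAT word TTCNNNGAA and the T-box word TCACAC.
Cd160: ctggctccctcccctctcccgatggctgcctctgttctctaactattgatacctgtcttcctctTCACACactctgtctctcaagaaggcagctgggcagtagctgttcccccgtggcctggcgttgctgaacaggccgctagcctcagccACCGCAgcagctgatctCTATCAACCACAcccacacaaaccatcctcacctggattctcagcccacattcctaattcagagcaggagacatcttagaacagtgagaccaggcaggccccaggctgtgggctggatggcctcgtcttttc
Cd96: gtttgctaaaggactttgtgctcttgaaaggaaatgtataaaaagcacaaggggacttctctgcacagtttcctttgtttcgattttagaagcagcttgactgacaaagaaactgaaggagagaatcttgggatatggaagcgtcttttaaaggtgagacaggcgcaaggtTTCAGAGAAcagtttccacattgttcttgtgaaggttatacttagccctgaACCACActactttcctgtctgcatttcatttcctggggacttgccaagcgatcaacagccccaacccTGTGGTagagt
The printed Cd160 window holds 1 GATA, 2 RUNX and 1 T-box match, with a GATA and a RUNX match side by side in the longest run of capitals. The downstream Cd160 window, which is not printed, holds 1 match of each of the 4 kinds, the STAT word included. The Cd96 window holds 2 RUNX and 1 STAT match and none of the GATA or T-box words. Among 32851 RefSeq promoters of this length, 29.8% hold a GATA word, 22.4% a RUNX word, 8.3% the STAT word and 14.5% the T-box word, so such matches are common and are given as a description of the letters only.

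Cd200r1, the inhibitory receptor for Cd200, lies on chromosome 16 (44765736 to 44794978) and was the most abundant of the 8. It was at 155.8, 111.3 and 185.6 CPM in the young and 129.7, 131.1 and 180.9 CPM in the aged libraries. The groups overlapped almost fully. The log2 change was -0.04 ± 0.22 (SE), and its 95% interval of -0.51 to 0.44 bounds a change of the mean to less than 1.5-fold under TMM scaling (adjusted p = 0.936, edgeR). Its ligand Cd200 was nearly absent, with at most 37 counts in a library.

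Of the relatives of Cd200r1 in the same gene cluster, 1 passed the test. Cd200r4, an activating member of the family, rose from 26.4 to 84.9 CPM, by 1.68 ± 0.36 in log2 units (SE; adjusted p = 0.00822, edgeR), and was called in each of the 18 settings tried. It had 414, 597 and 657 counts in the young and 955, 768 and 2198 counts in the aged libraries. Cd200r3, an activating member known from mast cells and basophils, was at 18.6 and 10.2 CPM and did not pass (log2 change of -0.87 ± 0.43, SE; adjusted p = 0.202, edgeR), though its groups did not overlap. Summed mast cell and basophil markers, a list that includes Cd200r3 and is mostly Mcpt8, were at 243.0 to 305.8 CPM in the young and 200.5 to 332.3 CPM in the aged libraries. Cd200r2 had 4 counts in a single young library.

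Within libraries, there were 7.22, 4.58 and 5.56 Cd200r1 counts per Cd200r4 count in the young and 2.05, 2.54 and 1.30 in the aged libraries. The 2 groups did not overlap in this ratio (two-sided exact permutation p = 0.1, the smallest possible; 0.25 adjusted over the 5 ratios). Set against Cd200r3, the ratio went the other way. There were 8.37, 8.77 and 7.62 Cd200r1 counts per Cd200r3 count in the young and 18.1, 11.8 and 14.8 in the aged libraries. Those groups did not overlap either (two-sided exact permutation p = 0.1, 0.25 adjusted over the 5 ratios). Reads of the neighbours Cd200r1 and Cd200r4 can be told apart. Of all stretches of 75 bases, the read length, in the longest Cd200r1 transcript, 0.52% also occur in a transcript of another gene, Cd200r4. For Cd200r4 itself 2.59% are shared.

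Tigit, Cd200r1 and Cd96 lie within 2.47 Mb of chromosome 16. From Tigit to Cd96, 19 genes were tested, of which 1 (Cd200r4) rose and 1 (Cd96) fell, with a median log2 change of -0.09. That median was close to the -0.10 over all tested genes.

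Havcr2 (TIM-3) lies on chromosome 11 (46454935 to 46481255). It had 47, 151 and 130 counts in young libraries 1 to 3 and 23, 0 and 0 counts in aged libraries 1 to 3, or 2.45, 6.15 and 6.61 CPM against 1.52, 0 and 0 CPM. Each aged library lay below each young library, and a count of 0 allows up to 0.202 CPM in aged library 2 and 0.191 CPM in aged library 3, by counting error alone. The fitted log2 change of -3.30 ± 1.62 (SE) had a 95% interval of -6.88 to 0.27 and did not pass (adjusted p = 0.192, edgeR). Aged library 1 decided this: without it, both remaining aged libraries were at 0 and the gene was called (adjusted p = 0.0121).

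The relative Timd2, which lies near Havcr2 on chromosome 11, had 37, 17 and 46 counts in the young and 0 in the aged libraries, at least 25.2-fold lower when the aged group as a whole is set to a floor of 3 counts. It was called as lower (adjusted p = 0.0266, edgeR), but the call was lost in limma-voom (adjusted p = 0.0703) and without any single library (0.0586 to 0.0994). The Timd2 call was also lost when the edgeR fit allowed for replicate number alone (adjusted p = 0.119) or with transcript length and GC content (0.125). A filter at 1 CPM in 3 libraries removed the gene. Havcr1 and Timd4 had no counts. Among ligands assigned to TIM-3, the galectin 9 gene Lgals9 was abundant at 186.3 and 223.5 CPM and the nuclear protein gene Hmgb1 at 232.7 and 318.3 CPM, and neither passed the test. Ceacam1 had 10 counts in a single young library.

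Lag3, a relative of the T cell co-receptor CD4, lies on chromosome 6 (124904361 to 124911705). It was low in all libraries, with 54, 31 and 13 counts in young libraries 1 to 3 and 38, 55 and 22 in aged libraries 1 to 3. These correspond to 2.82, 1.26 and 0.661 CPM and to 2.52, 3.70 and 1.40 CPM, and the groups overlapped. The log2 change was 0.68 ± 1.09 (SE; adjusted p = 0.732, edgeR), with a 95% interval from -1.71 to 3.08. Changes of several fold either way are thus not excluded. Of its other described ligands, Lgals3, which encodes galectin 3, rose from 464.8 to 2292 CPM, by 2.30 ± 0.16 in log2 units (SE; adjusted p = 7.17e-06, edgeR), and was called in each of the 18 settings. Fgl1 and Clec4g had no counts.

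Cd244 (2B4), a SLAM family receptor on chromosome 1 (171559193 to 171609746), was patchy. It had 0, 2 and 68 counts in young libraries 1 to 3 and 46, 0 and 0 in aged libraries 1 to 3. Its transcript was thus found mainly in 1 library of each age, at 3.46 CPM in young library 3 and 3.05 CPM in aged library 1. The NK cell gene Klre1 was found in the same 2 libraries only, with 43 and 42 counts. Such gaps were frequent at this level: of 1254 genes with a mean of 10 to 30 counts per library, 78.2% had at least 1 library at 0. Without the low-count filter the log2 change of Cd244 was -0.21 ± 2.13 (SE; adjusted p = 0.959, edgeR).

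The Cd244 ligand Cd48, itself a SLAM family member, was abundant at 240.5 CPM in the young and 382.8 CPM in the aged libraries. It rose by 0.67 ± 0.14 in log2 units (SE; adjusted p = 0.00788, edgeR). That call was lost with library totals as the sole scaling (log2 change of 0.26), and the sign turned when the fit allowed for transcript length and GC content (-0.09). Cd84 and Ly9, further SLAM receptors, had groups that did not overlap but did not pass in edgeR, at 32.6 and 57.5 CPM and at 5.53 and 14.7 CPM. Cd84 was called in 3 of the 18 settings, namely DESeq2, limma-voom and length and GC offsets, and Ly9 in none of them. Slamf1 and the adaptor genes Sh2d1b1 and Sh2d1b2 had no counts, and the adaptor gene Sh2d1a had 16 counts in 1 young library.

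**Figure D2:**
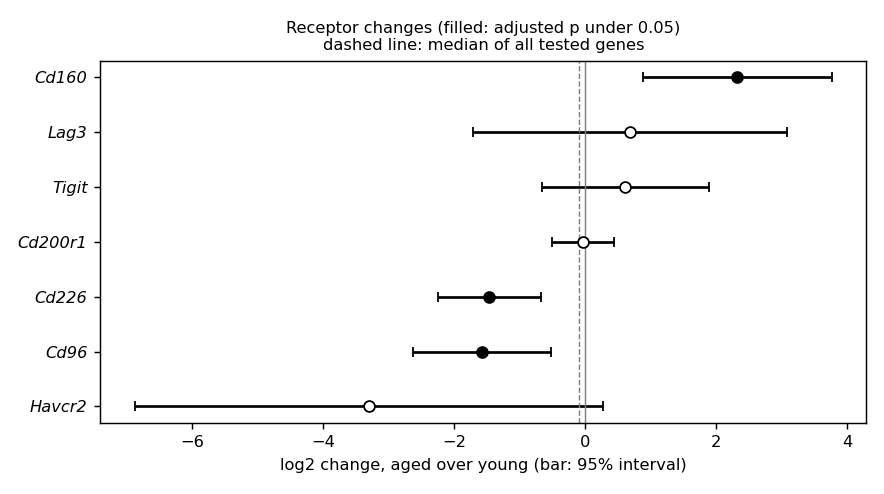
Fitted log2 change, aged over young, of the 7 tested receptors (x axis) with 95% intervals; filled points passed at an adjusted p under 0.05 and the dashed line is the median of all tested genes at -0.10. Cd160 lies to the right, Cd226 and Cd96 to the left, and the interval of Cd200r1 is the narrowest.

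Compared per kilobase of exon, the 8 transcripts differed widely in level. In young libraries Cd200r1 stood first at 45.1 ± 11.2 CPM per kb, followed by Cd226 at 12.9 ± 3.59, Tigit at 10.8 ± 2.11 and Cd96 at 10.2 ± 3.76 CPM per kb (SD, n = 3). Cd226, Tigit and Cd96 did not differ beyond their spread. Havcr2 at 1.86 ± 0.837, Cd160 at 0.817 ± 0.329, Lag3 at 0.749 ± 0.527 and Cd244 at 0.242 ± 0.405 CPM per kb came lower. The ranges of Cd160 and Lag3 overlapped.

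In aged libraries the order after Cd200r1 (44.0 ± 8.71 CPM per kb) was Tigit at 16.5 ± 11.2, Cd226 at 4.65 ± 1.96, Cd160 at 4.09 ± 0.590 and Cd96 at 3.43 ± 1.46 CPM per kb (SD, n = 3). The ranges of Cd226, Cd160 and Cd96 overlapped. Within each aged library Cd226 stood above Cd96, narrowly in libraries 1 and 2 (5.08 against 5.06, 2.52 against 2.28 and 6.36 against 2.94 CPM per kb). Tigit overlapped Cd226 as well, and lay below it in aged library 3 (5.04 against 6.36 CPM per kb). Lag3 followed at 1.20 ± 0.547, with Cd244 at 0.208 ± 0.361 and Havcr2 at 0.187 ± 0.323 CPM per kb.

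Of all counts of the 8 genes, Cd200r1 took 58.6 to 59.4% in the young and 62.6 to 76.4% in aged libraries. The share of Cd226 was 23.7 to 25.4% in the young and 6.90 to 13.1% in aged libraries, and that of Cd96 was 6.88 to 9.72% in the young and 2.71 to 5.34% in the aged libraries. Cd160 took 0.622 to 0.934% in the young and 4.45 to 6.11% in aged libraries. These shares do not depend on library scaling, but they sum to a whole, so a fall of some raises the others.

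**Figure D3:**
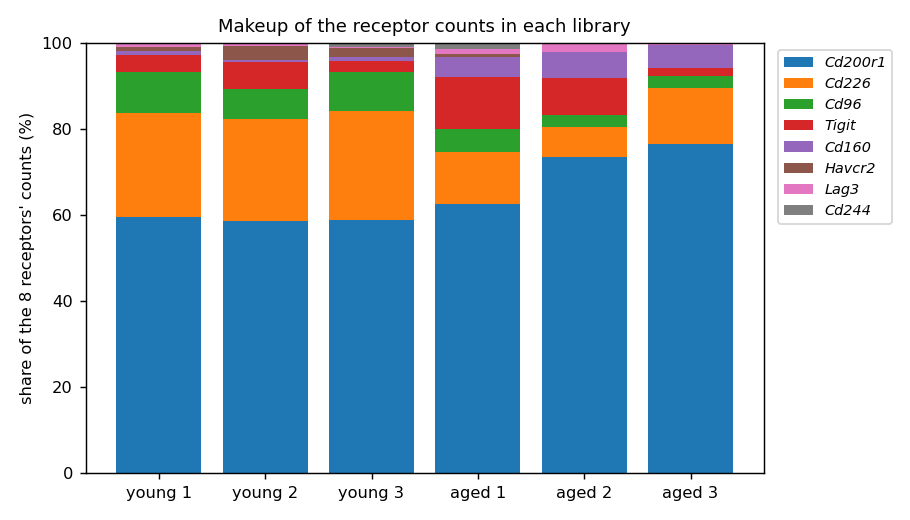
Share of the summed counts of the 8 receptors (y axis, percent, not corrected for transcript length) held by each receptor in the 6 libraries. Young bars are alike, with Cd226 at 23.7 to 25.4%, while in aged bars Cd226 and Cd96 are narrower and Cd160 is wider.

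The wider set of genes that work with these receptors was also described, as 57 listed names of which 55 were in the table and 34 were tested. Of the 7 tested ligands 3 rose in edgeR (Pvr, Lgals3 and Cd48), beside 11.2% of all tested genes, and 2 rose in limma-voom. None fell in edgeR, DESeq2 or limma-voom, and in edgeR 0 had an unadjusted p under 0.05 in that direction. Their median log2 change was 0.67 beside -0.10 over all tested genes. Across the tested genes the log2 change fell with transcript length (Spearman correlation of -0.35). Its median was 0.49 in the group of shortest transcripts and -0.48 in the group of longest ones. The part of transcript length in the list medians given here was not tested. Of 7 tested relatives, Cd200r4 rose and Timd2 fell, beside 11.2% and 8.14% of all tested genes, with a median of 0.56.

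Among 14 tested signalling and shedding partners, 1 fell, beside 8.14% of all tested genes. It was Inpp5d, which encodes the lipid phosphatase SHIP-1 recruited by inhibitory receptors. It went from 59.3 to 27.0 CPM, by -1.14 ± 0.30 in log2 units (SE; adjusted p = 0.0222, edgeR). The call was lost when the fit allowed for transcript length and GC content (-0.78, adjusted p = 0.0608) and without young library 1 (0.12), young library 2 (0.0904), aged library 2 (0.0819) or aged library 3 (0.057). None rose in edgeR, DESeq2 or limma-voom, in edgeR 0 had an unadjusted p under 0.05 in that direction, and the median was -0.37. The tyrosine phosphatase gene Ptpn6 (SHP-1) did not pass, at 34.7 and 20.3 CPM with groups that did not overlap. Dok1 and Dok2, adaptors of Cd200r1, and Adam10 and Adam17, which shed Lag3 from the surface, did not pass either.

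Of 6 other inhibitory receptors tested, 3 rose and 1 fell, beside the 11.2% and 8.14% of all tested genes. Ctla4, the CD28 family brake, rose from 9.37 to 52.6 CPM, by 2.49 ± 0.41 in log2 units (SE; adjusted p = 0.00158, edgeR). Lilrb4a rose from 313.8 to 988.5 CPM, with 35.9% of its exon length overlapped by other annotated genes, which leaves its counts uncertain. Klrg1, a marker of mature ILC2, had 1467, 2026 and 1979 counts in the young and 0, 7 and 61 counts in the aged libraries. These 3 genes were called in each of the 18 settings. Pdcd1 (PD-1) rose by 0.82 ± 0.21 in log2 units (SE; adjusted p = 0.0189, edgeR), a call lost with library totals as the sole scaling (0.205), when the fit allowed for transcript length and GC content (0.0983), and without young library 1 (0.0601) or aged library 2 (0.0731).

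**Figure D4:**
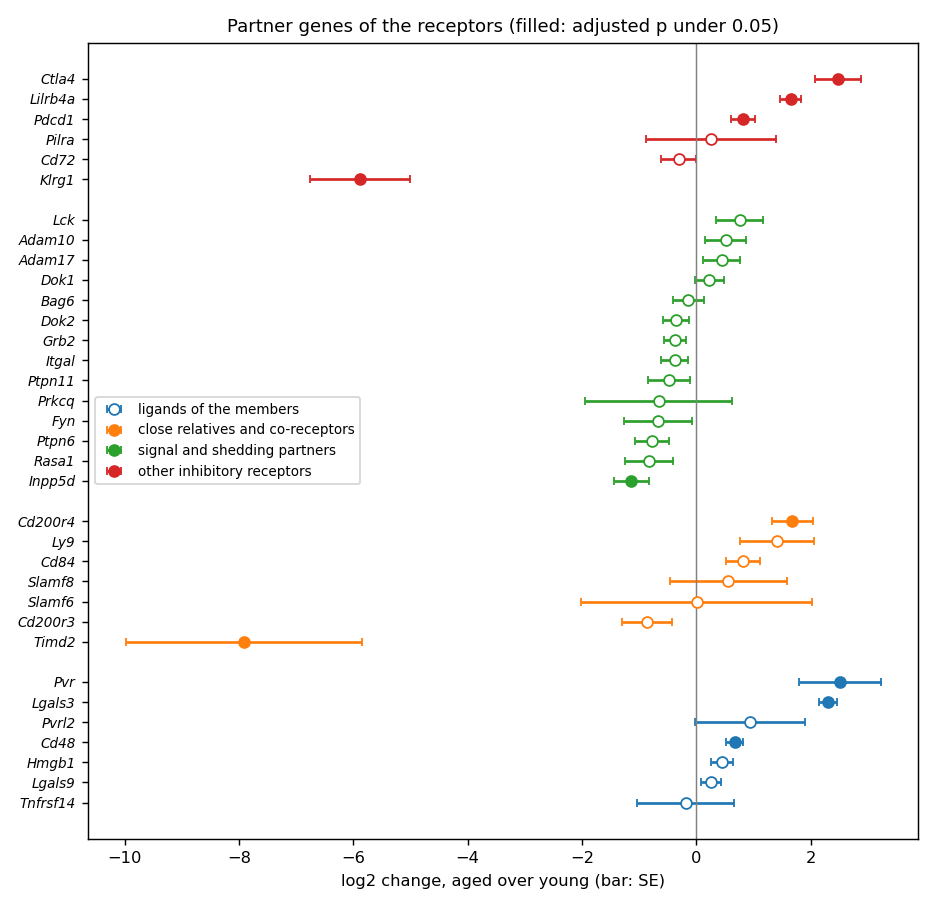
Fitted log2 change, aged over young (x axis), with its SE, of the 34 tested ligands, relatives, signalling partners and other inhibitory receptors, coloured by list; filled points passed at an adjusted p under 0.05. Timd2 had 0 counts in aged libraries, so its fitted value is no bound, and Klrg1 is the other point far to the left.

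Genes with the most similar pattern were found for each tested receptor by the root mean square difference of centred log2 CPM over the 6 libraries. For Cd160 they were Cysltr2 (0.157), which encodes a leukotriene receptor, Gpr183 (0.216), which encodes an oxysterol receptor, and M1ap (0.243). For Cd96 they were Cog3 (0.147), Pop1 (0.218) and Ttc13 (0.241), and for Cd226 they were Zfp110 (0.150), Brd7 (0.177) and Synj1 (0.194). Tigit was nearest to Spred3 (0.153), Mfsd3 (0.167) and Spire1 (0.201). Havcr2 had the least close matches, Fmn2 (0.331), Lysmd4 (0.372) and Grb10 (0.459), and Cd200r1 the closest, Taf1d (0.0537), Fkbp3 (0.0563) and Dcp2 (0.0658). Lag3 was nearest to Bcl2l2 (0.185), Fam193b (0.195) and Zfp382 (0.259). The root mean square difference is not scaled and spans both groups, so it includes the size of each change and the spread at low counts. It does not rank the receptors by shared regulation, which was not tested.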

How the data were processed

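RNA was measured by single-end sequencing of 75 bases in 3 young and 3 aged libraries, grouped by their titles. The authors deposited raw counts per gene symbol without normalization. Per the submitters' processing notes, the build was mm10 and the tools included STAR 2.5.3a (an aligner), Cufflinks 2.0 and DESeq2 1.1. How reads were counted, with which annotation and strand, is not given in the sources used here. Counts were fitted in R 4.3.3 with edgeR 4.0.16 (filterByExpr with a minimum count of 10 and a minimum total of 15, TMM, glmQLFit and glmQLFTest), with Benjamini-Hochberg adjustment over 11805 genes at 0.05. TMM factors were 1.16 ± 0.030 for the young and 0.866 ± 0.023 for the aged group (SD, n = 3 each). Intervals use the t distribution of the fit. Coordinates, exon lengths and overlaps come from GENCODE vM21 (GRCm38), in which 98.3% of symbols had a model, and Cd244 and the nectins were matched through RefSeq synonyms. Of the 8 receptors, Cd160 alone overlaps another gene in its exons, Pdzk1 on the opposite strand, over 2.57% of their length. A floor is 3 counts, and intervals and floors cover counting error only. On simulated data with 200 changed genes, the fit recovered 20.2% of 2-fold and 58.9% of 4-fold changes. False calls made up 3.80% of all calls there. The simulation changed far fewer genes than the 2286 called in the reported fit, so its rates may not hold for these data. A gene that did not pass can still have changed. The members, lists and tests were chosen with earlier results of these data known. All 8 receptors are named, and so are up to 8 called genes per partner list, by smallest p. Other list members were named after their values were seen. For each tested receptor the 3 genes nearest in centred log2 CPM (prior count 2) are named, among those with a mean of at least 1 CPM and no predicted genes. Alternatives were DESeq2 1.42.0, limma-voom (limma 3.58.1), other scalings and filters, robust dispersion, offsets for transcript length and GC content, a replicate block and leaving out each library. Within each group, pairs of libraries differed beyond counting noise, at 31.2 to 80.6 chi-square units per degree of freedom.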

Additional observations from a re-analysis of the deposited data

How the results depend on the processing

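The log2 changes of Cd160, Cd96 and Cd226 kept their sign in the 17 alternatives, and the calls of the 3 held with RLE or upper-quartile scaling, DESeq2, other filters, robust dispersion, and length and GC offsets. The number of receptors called as higher, 1 in the reported fit, was 0 with library totals only and with the replicate block, alone or with length and GC offsets (each with 1 at an unadjusted p under 0.05, edgeR), and 0 to 1 when a library was left out (1 to 2 at an unadjusted p). The number called as lower was 1 in limma-voom and 0 to 3 when a library was left out, with 2 to 3 at an unadjusted p (edgeR). Without young library 1, 0 receptors were called (3 at an unadjusted p under 0.05, edgeR). Cd160 was lost with library totals only (1.91), the replicate block (2.40, adjusted p = 0.0628) and the replicate block with length and GC offsets (2.37, adjusted p = 0.0677), and Cd96 in limma-voom (-1.53). Leaving out a library gave 2.04 to 2.60 for Cd160, -1.97 to -1.33 for Cd96, -1.76 to -1.17 for Cd226 and -9.58 to -2.72 for Havcr2; the value of -9.58 sets the young libraries against 2 libraries at 0 and is no bound. Tigit turned to -0.15 with length and GC offsets and to -0.42 with the replicate block added, and Cd200r1 ranged from -0.21 to 0.17 without a library. Partner genes called as higher went from 7 to 4 with library totals only and with the replicate block plus length and GC offsets. Those called as lower went from 3 to 8 and to 1 in the same 2 fits, and to between 1 and 2 without a library. Over all genes, library totals only gave 718 higher and 2380 lower in place of 1325 and 961, and leaving out a library gave 915 to 1344 higher and 399 to 849 lower. The cause of these losses was not tested. Whether replicate numbers pair the samples is not in the labels. Deviations of same-numbered libraries correlated at 0.0196, 0.00883 and 0.0414, and those of other pairs at -0.0273 to 0.0125. Young library 2 alone did not have its highest value with its own number. Values this small cannot settle whether the numbers mark pairs. The block moved all calls to 1208 higher and 800 lower. With the block Pvr (adjusted p = 0.0848) and Timd2 (0.119) were not called, nor with length and GC offsets added (0.0762 and 0.125). The group mean of Cd200r1 counts per Cd200r4 count was 2.95-fold higher in young. It was 2.52-fold to 3.46-fold higher when a library was left out, an alternative chosen after seeing the data. Lag3, Havcr2, Cd244 and Cd160 had no more than 194 counts in any library.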
